A study of Mus musculus with 2 samples.

Results

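The TNF superfamily is the set of tumour necrosis factor-like ligands and their receptors. Its genes were followed in M210B4, an established line of stromal cells from mouse bone marrow, after exposure to an antibody that activates CD84 (clone 152-1D5), set against an IgG1 isotype antibody. Members were chosen by a rule on symbols that uses no expression values, though earlier results of these data were known. The rule takes symbols that begin with Tnfsf or Tnfrsf and a number, with Tnf, Lta, Ltb, Ltbr, Cd40, Cd70 and Ngfr. This gave 36 of the 22180 genes on the array that have a probe set with a single gene symbol, of which 13 encode ligands and 23 receptors. Tnfsf12 and Tnfsf13, the genes for the ligands TWEAK and APRIL, are annotated only together on a probe set with several symbols and so are not among the 36. Each treatment was represented by 1 Affymetrix Mouse Gene 2.0 ST array, made from cells of the same line that were cultured for 24 h at 37 °C and 5% CO2 in RPMI medium with 2% serum. CD84 belongs to the SLAM family of cell-surface receptors and is its own ligand. A single line, with no sign in the labels of separate cultures per treatment, limits these cells as a model of marrow stroma.

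Ligands of this superfamily are trimers, most of them anchored in the membrane of the cell that makes them and often shed from it. Their receptors bind them through cysteine-rich repeats and signal in different ways. Receptors with a death domain recruit adaptors such as TRADD and FADD, which lead to NF-kB or to caspase-8, while most others bind TRAF proteins directly. Decoy receptors bind a ligand and pass on no death signal. In bone marrow the family is best known for RANK ligand, which stromal and bone cells present to osteoclast precursors and which osteoprotegerin captures, and for BAFF, which keeps B cells alive.

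With 1 array per group there is no standard error, no replicate check and no p-value, and every difference below is between 2 arrays. Values are log2 expression levels of a probe set, differences are anti-CD84 minus IgG1 on that scale, and levels of different genes are not set against each other because each probe set has its own response. A gene was called detected above a level of 4.84 on at least 1 array, the 95th percentile of 1405 probe sets for olfactory and vomeronasal receptors. By this rule 13290 genes were detected. Their differences had a median of 0.09 and a standard deviation of 0.44. Where a gene had a pair of probe sets measured above this level throughout (375 genes), their differences had a Pearson r across genes of 0.08. Each of the 36 members has 1 probe set, so none can be checked in this way.

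Markers of the labelled cell type were present, with Col1a1 at 12.52 after anti-CD84 against 12.53 after IgG1 and 8 of 11 measured stromal markers detected. Of the 8 detected, 2 were at least 1.5-fold higher and 0 lower, beside 10.7% and 6.40% of all detected genes. The 8 had a median difference of 0.25, beside 0.09 for all detected genes. Cxcl12 was at 10.29 after anti-CD84 and 9.19 after IgG1, and Pdgfra at 10.21 after anti-CD84 and 9.29 after IgG1. Pdgfrb and Col3a1 had differences of 0.47 and 0.40, and Col1a2 and Vcam1 of 0.10 and 0.01. Thy1, above the level on the IgG1 array alone, went the other way, at 4.39 after anti-CD84 and 4.95 after IgG1. Lepr, Eng and Nt5e were below the detection level on both arrays. The leukocyte gene Ptprc and the lymphocyte genes Cd79a, Ms4a1, Pax5 and Cd3e were below it as well. Of the markers of other cell types, 2 of 7 for B and plasma cells, 3 of 8 for T and NK cells, 3 of 10 for macrophages and granulocytes, 3 of 6 for endothelial cells and 2 of 6 for osteoclasts were detected on at least 1 array.

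Of the 36 members 26 were detected, 17 of them on both arrays, 3 on the anti-CD84 array alone and 6 on the IgG1 array alone. Over all 13290 detected genes these classes held 11765, 705 and 820 genes, in the same order. The other 10 were below the level on both. Counts use the values as measured, also those below the level. Among the 26, 4 were at least 1.5-fold higher after anti-CD84 (Tnfrsf23, Tnfrsf25, Tnfsf14 and Tnfrsf1a), 4 were at least 1.5-fold lower (Lta, Tnfrsf8, Tnfrsf13b and Tnfsf13b) and 18 lay within 1.5-fold. Over all 13290 detected genes, 10.7% were past 1.5-fold upward and 6.40% past it downward. At 2-fold, 1 member was higher (Tnfrsf23) and 2 were lower (Lta and Tnfrsf8), against 1.98% and 1.43% of detected genes. Counted from the detection level, Lta was at least 1.96-fold and Tnfrsf8 at least 1.41-fold lower, so neither is shown to be 2-fold lower. With values below the level raised to it, 3 members were past 1.5-fold upward and 1, Lta, downward. The shares of all detected genes were then 9.16% and 4.14%. A member that passed on 1 array alone necessarily differed between the arrays, so these counts describe the 26 and give no support to a shift of the family.

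The higher and the lower members were not measured equally well. Above the level on both arrays, 3 of 17 members were past 1.5-fold upward and 0 downward, against 9.56% and 3.88% of 11765 genes that met the same condition. All 4 of the lower members were below the level after anti-CD84. For them a fold is written "at least" and counted from the detection level, with the brighter value taken as free of noise. The 26 split evenly, 13 with a positive and 13 with a negative difference, and 7847 of the 13290 detected genes were positive. Their median difference was 0.04, beside 0.09 for all detected genes. Centred on the median of all detected genes, loess-corrected or quantile-normalized, the split was 2 higher and 5 lower. All detected genes moved the same way. In that order, 7.71%, 8.16% and 8.21% of them were past 1.5-fold upward and 8.49%, 7.67% and 7.78% downward.

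**Figure D1:**
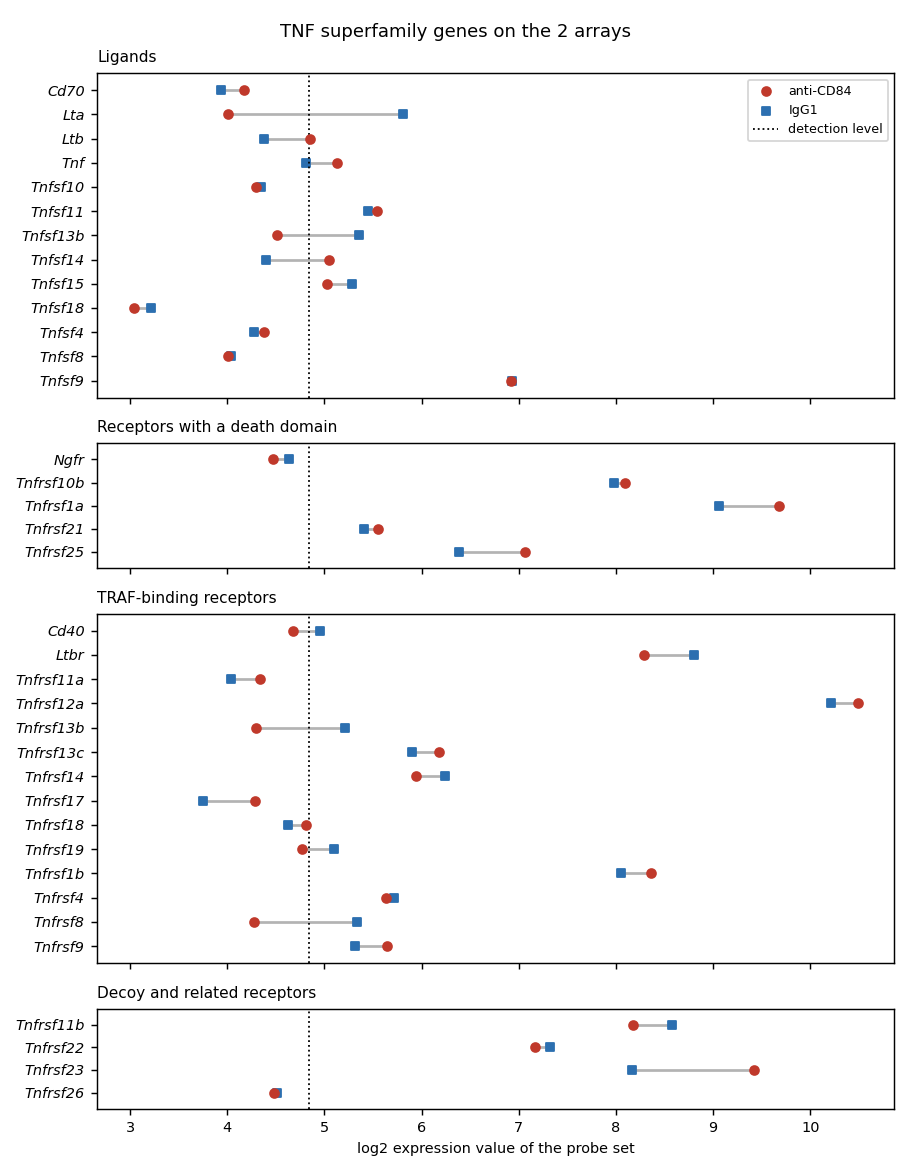
Log2 expression value of each of the 36 members, grouped by role, after anti-CD84 (circles) and after IgG1 (squares), 1 array each, with the detection level of 4.84 as a dotted line. Tnfrsf23, Tnfrsf25 and Tnfrsf1a are displaced to the right after anti-CD84 and lie above the line on both arrays, whereas Lta, Tnfrsf8, Tnfrsf13b and Tnfsf13b cross it.

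Spread depended on level. In the 1483 detected genes with a mean level under 5 the standard deviation of the difference was 0.62, 13.8% were past 1.5-fold upward and 20.3% downward. The 4 lower members and Tnfsf14 belong to the 9 detected members in this range. Between mean levels of 8 and 9, where Tnfrsf23 and Ltbr lie, the standard deviation was 0.35 over 2204 genes. There 7.62% were at least 1.5-fold and 1.18% at least 2-fold higher.

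**Figure D2:**
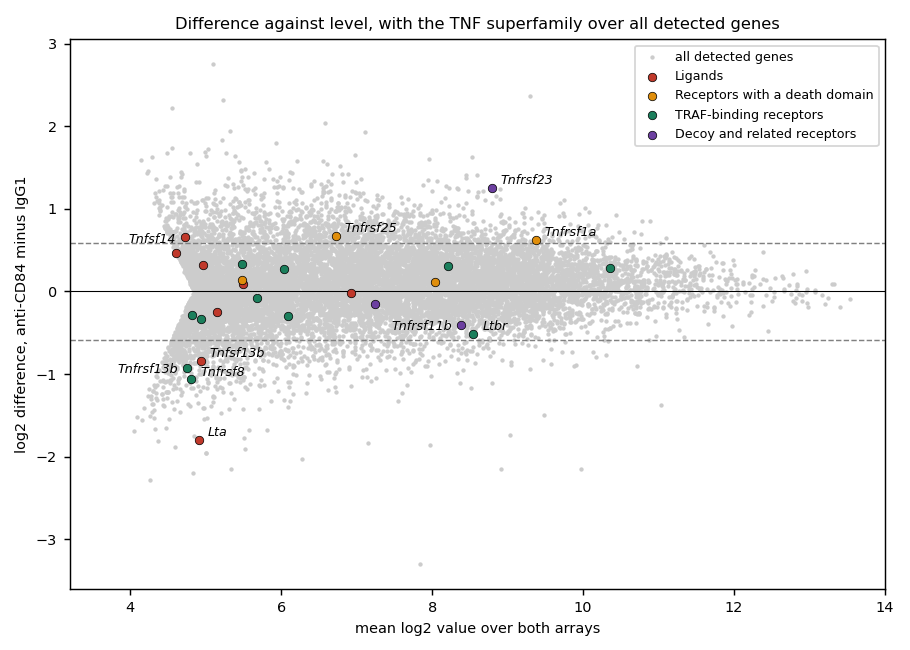
Log2 difference, anti-CD84 minus IgG1, against the mean log2 value over both arrays for all 13290 detected genes (grey) and the 26 detected members (coloured by role), with 1.5-fold as dashed lines. The grey cloud narrows to the right; Tnfrsf23, at 1.26, stands outside most of the genes near its level, while Lta, Tnfrsf8, Tnfrsf13b and Tnfsf13b lie in the wide part at the left.

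The 3 receptors that were at least 1.5-fold higher on both arrays, and Ltbr, the neighbour of Tnfrsf1a with a difference of the opposite sign, are shown by the 250 bases before their transcription start, from RefSeq (GRCm38.p6), read 5′ to 3′ on the gene's strand. RefSeq windows were found for 28 of the 36 members. They were searched on both strands for the TATA box TATAAA and for the NF-kB consensus, and a match is printed in capitals. The windows are chr7:143685876-143686125 on the minus strand for Tnfrsf23, chr6:125349473-125349722 on the plus strand for Tnfrsf1a, chr4:152115684-152115933 on the plus strand for the first of 2 starts of Tnfrsf25, and chr6:125313886-125314135 on the minus strand for Ltbr.
Tnfrsf23: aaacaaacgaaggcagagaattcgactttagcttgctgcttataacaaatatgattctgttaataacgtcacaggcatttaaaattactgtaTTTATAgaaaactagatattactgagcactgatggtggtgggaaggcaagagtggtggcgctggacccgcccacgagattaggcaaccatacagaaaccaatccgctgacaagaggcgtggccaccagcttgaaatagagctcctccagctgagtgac
Tnfrsf1a: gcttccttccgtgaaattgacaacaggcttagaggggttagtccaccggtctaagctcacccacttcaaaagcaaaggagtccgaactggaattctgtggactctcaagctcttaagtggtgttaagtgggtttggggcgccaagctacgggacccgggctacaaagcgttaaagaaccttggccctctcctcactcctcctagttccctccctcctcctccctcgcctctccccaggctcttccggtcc
Tnfrsf25: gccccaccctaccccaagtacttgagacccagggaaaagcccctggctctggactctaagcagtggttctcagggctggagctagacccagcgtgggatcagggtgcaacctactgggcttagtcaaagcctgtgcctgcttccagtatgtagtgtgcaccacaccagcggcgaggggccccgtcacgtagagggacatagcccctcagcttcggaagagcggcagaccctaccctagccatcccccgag
Ltbr: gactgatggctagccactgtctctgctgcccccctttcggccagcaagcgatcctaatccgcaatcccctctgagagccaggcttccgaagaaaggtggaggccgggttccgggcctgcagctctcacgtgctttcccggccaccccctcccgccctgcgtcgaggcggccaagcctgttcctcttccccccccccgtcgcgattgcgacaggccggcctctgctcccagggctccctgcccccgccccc
Only Tnfrsf23 among these windows held a TATAAA match, which lies on the opposite strand and begins 158 bases before the start. Of all 32851 windows of this length 12.4% hold TATAAA and 3.90% the NF-kB consensus. Among the windows of the members, TATAAA was found in Tnf, Lta, Tnfsf11, Tnfsf18, Tnfrsf17 and Tnfrsf23, and the NF-kB consensus in Ltb, Tnfrsf8 and Tnfrsf9. The 6 with TATAAA had differences from -1.79 (Lta) to 1.26 (Tnfrsf23). The GC content was 44.8% for Tnfrsf23, 55.6% for Tnfrsf1a, 61.6% for Tnfrsf25 and 69.2% for Ltbr, with a median of 52.4% over all windows.

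Of the receptors with a death domain, 4 of 5 exceeded the detection level on both arrays, each with a positive difference as deposited, and 2 were at least 1.5-fold higher. Of all 11765 genes above the level on both arrays, 7142 had a positive difference and 9.56% were at least 1.5-fold higher. Tnfrsf1a, the main receptor for soluble TNF and for lymphotoxin alpha, had a level of 9.68 after anti-CD84 and 9.06 after IgG1, a 1.54-fold higher value. Tnfrsf25, known as DR3, is the receptor for TL1A. It had 7.06 after anti-CD84 against 6.38 after IgG1, 1.60-fold higher. Both stayed positive under the other scalings but lay near the 1.5-fold line, which is 0.58 on the log2 scale. Tnfrsf1a had differences of 0.54, 0.51 and 0.54 when centred, loess-corrected or quantile-normalized, and Tnfrsf25 had 0.59, 0.57 and 0.55. Tnfrsf10b, the mouse death receptor for TRAIL, was at 8.09 after anti-CD84 and 7.98 after IgG1, and its difference of 0.11 became -0.01 with the loess correction. Tnfrsf21, or DR6, was at 5.55 and 5.41 in the same order, a difference of 0.14. The neurotrophin receptor gene Ngfr was below the level on both arrays, at 4.47 after anti-CD84 and 4.64 after IgG1.

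Among the receptors that bind TRAF proteins 11 of 14 were detected, 0 were past 1.5-fold upward and 2 downward, both of these close to the detection level. Over all detected genes 10.7% were past 1.5-fold upward and 6.40% downward. The TRAF-binding receptors measured on both arrays had differences from -0.51 to 0.34. Ltbr, the lymphotoxin beta receptor of stromal cells and an activator of the non-canonical NF-kB pathway, had the most negative. Its level was 8.29 after anti-CD84 and 8.80 after IgG1, 1.43-fold lower. It passed 1.5-fold under each of the 3 other scalings, with differences of -0.60 when centred, -0.63 after loess correction and -0.61 after quantile normalization. As deposited, where Ltbr did not pass, 2.22% of detected genes in its range of level were at least 1.5-fold lower. The share in that range was not counted under the other scalings. Over all levels the lower share was 6.40% as deposited and 8.49%, 7.67% and 7.78% when centred, loess-corrected or quantile-normalized.

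Differences of the other TRAF-binding receptors above the level on both arrays were smaller. Tnfrsf1b, the second TNF receptor, which responds best to membrane-bound TNF, was at 8.36 after anti-CD84 and 8.06 after IgG1. That is a 1.24-fold higher value for the second receptor of the same ligand, beside 1.54-fold for Tnfrsf1a. Tnfrsf12a, or Fn14, the receptor for TWEAK, was at 10.49 after anti-CD84 and 10.21 after IgG1, 1.21-fold higher. Tnfrsf9, the costimulatory receptor 4-1BB, was at 5.65 after anti-CD84 against 5.31 after IgG1, 1.26-fold higher. Tnfrsf14, or HVEM, which binds LIGHT and lymphotoxin alpha, went the opposite way, with 5.94 after anti-CD84 and 6.24 after IgG1, 1.23-fold lower. Tnfrsf4, the T cell receptor OX40, was at 5.64 after anti-CD84 and 5.72 after IgG1.

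The remaining TRAF-binding receptors were at or under the detection level on at least 1 array. Tnfrsf8, which encodes CD30, was at 4.27 after anti-CD84 and 5.34 after IgG1, at least 1.41-fold lower. Cd40, the receptor for CD40 ligand on antigen-presenting cells, had 4.68 after anti-CD84 against 4.96 after IgG1, at least 1.09-fold lower. Tnfrsf19, or TROY, had 4.77 after anti-CD84 against 5.10 after IgG1, at least 1.20-fold lower. Tnfrsf18, the T cell receptor GITR, was below the level on both arrays, at 4.81 and 4.63 in the same order, and no fold is given for it.

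Of the decoys and the receptors related to them, Tnfrsf23 had the largest positive difference of the 36 members. It encodes one of the mouse decoy receptors for TRAIL and is known from the mouse, with no direct human counterpart. Its level was 9.42 after anti-CD84 and 8.16 after IgG1, 2.39-fold higher, and it was the only member at least 2-fold apart and above the level on both arrays. Across the alternatives its difference ran from 1.14 to 1.26. Tnfrsf22, the neighbouring gene and a close relative that also encodes a TRAIL decoy, was at 7.17 after anti-CD84 and 7.32 after IgG1, 1.11-fold lower. Tnfrsf26, next to Tnfrsf22 in the same cluster, was below the level on both arrays, at 4.48 after anti-CD84 and 4.51 after IgG1. Of the 3 genes of the cluster Tnfrsf23 alone was past 1.5-fold. Probes of near relatives can take up each other's transcripts, and whether they did so here was not tested. Tnfsf10, the gene for TRAIL itself, was below the level on both arrays, at 4.29 after anti-CD84 and 4.35 after IgG1.

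**Figure D3:**
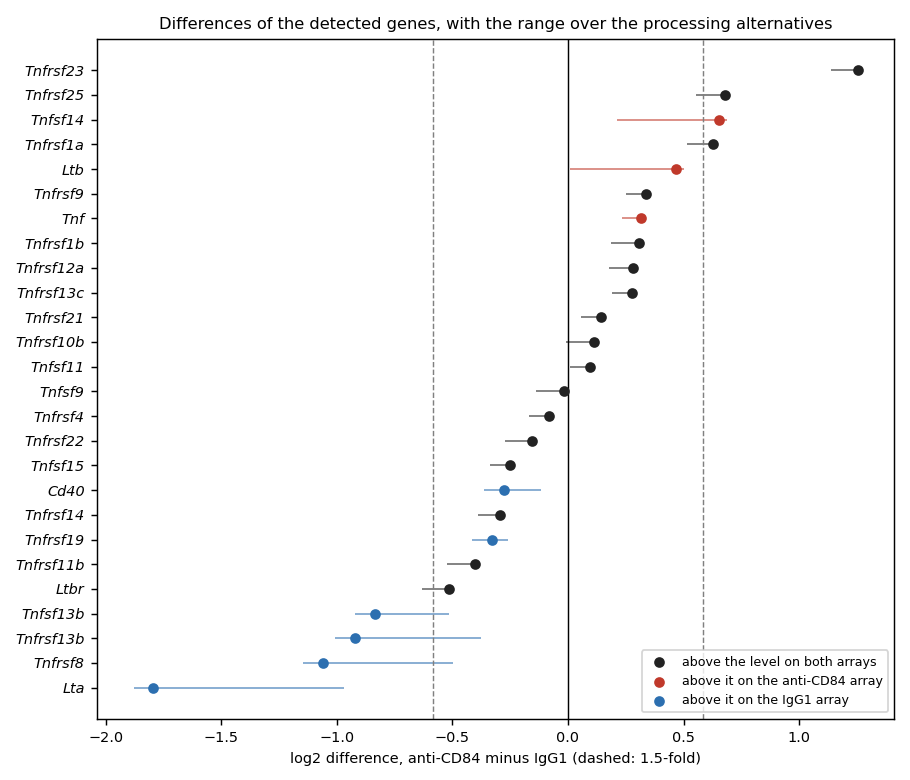
Log2 difference, anti-CD84 minus IgG1, of the 26 detected members (points), coloured by the arrays on which they were above the detection level; lines span the lowest and highest value over the deposited scale and 5 processing alternatives, and dashed lines mark 1.5-fold. Tnfrsf23 stays beyond 1.5-fold throughout, Tnfrsf25 and Tnfrsf1a straddle the line, and the 4 most negative members have long lines that reach towards 0 when values are floored at the detection level.

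The ligands were mostly at or below the detection level. Of 13 measured, 3 were above it on both arrays, 3 on the anti-CD84 array alone, 2 on the IgG1 array alone and 5 on neither. Of all 22180 genes, 11765, 705, 820 and 8890 fell in these classes, in the same order. The 3 measured on both arrays differed little. Tnfsf9, the gene for 4-1BB ligand, was at 6.92 after anti-CD84 and 6.93 after IgG1. Tnfsf15, which encodes TL1A, was at 5.03 after anti-CD84 and 5.28 after IgG1, 1.19-fold lower, whereas its receptor Tnfrsf25 was among the higher members. Tnfsf11 is described with the RANK ligand axis.

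The genes for TNF and the lymphotoxins lie side by side on mouse chromosome 17 and had differences of both signs. Lta, which encodes the secreted lymphotoxin alpha, was at 4.01 after anti-CD84 and 5.81 after IgG1, at least 1.96-fold lower. This was the most negative difference of the family, -1.79 as measured and -0.97 with values floored at the detection level. Tnf itself had 5.13 after anti-CD84 against 4.81 after IgG1, at least 1.22-fold higher. Ltb, the membrane anchor of the lymphotoxin heterotrimer, had 4.85 after anti-CD84 against 4.38 after IgG1, which is at least 1.01-fold higher. Tnfsf14, the gene for LIGHT, was at 5.05 after anti-CD84 and 4.39 after IgG1, at least 1.16-fold higher. LIGHT shares the receptor Ltbr, which was lower after anti-CD84, with the lymphotoxin heterotrimer. Of their genes, Ltb and Tnfsf14 were above the detection level only after anti-CD84, and Lta only after IgG1. With values floored at that level, Ltb had a difference of 0.0082 and Tnfsf14 of 0.21. The 5 ligands below the level on both arrays, Cd70, Tnfsf4, Tnfsf8, Tnfsf10 and Tnfsf18, had values from 3.04 to 4.38.

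In the BAFF axis the ligand and 1 of its receptors were lower, both near the detection level. Tnfsf13b, which encodes BAFF, was at 4.52 after anti-CD84 and 5.35 after IgG1, at least 1.43-fold lower. Tnfrsf13b, the receptor TACI, had 4.29 after anti-CD84 against 5.21 after IgG1, at least 1.30-fold lower. With values floored at the detection level their differences were -0.51 and -0.37, and so both within 1.5-fold. Tnfrsf13c, the BAFF receptor through which B cells survive, was above the level on both arrays, at 6.17 after anti-CD84 and 5.90 after IgG1, 1.21-fold higher. Tnfrsf17, the plasma cell receptor BCMA, was below it on both, at 4.28 after anti-CD84 and 3.75 after IgG1. These receptors belong to B lineage cells, whose markers Cd79a, Cd79b, Ms4a1, Pax5 and Jchain were below the level on both arrays. The remaining pair of detected markers in that list, Ebf1 and Sdc1, had differences of 0.36 and 0.30. Summed over the 7 measured genes on the linear scale, the list stood at 741 after anti-CD84 and 612 after IgG1. The 5 genes below the level summed to 99.6 after anti-CD84 and 105 after IgG1, so Ebf1 and Sdc1 made up most of both sums and all of the increase. The part of B lineage cells in the receptor values was not tested.

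In the RANK ligand axis the ligand was nearly level and its decoy was lower by less than 1.5-fold. Tnfsf11, the gene for RANK ligand, was at 5.54 after anti-CD84 and 5.45 after IgG1, 1.07-fold higher. Tnfrsf11b, which encodes the soluble decoy osteoprotegerin, was at 8.18 after anti-CD84 and 8.58 after IgG1, 1.32-fold lower. Its difference, -0.40 as deposited, reached -0.52 among the alternatives. Tnfrsf11a, the receptor RANK on osteoclast precursors, was below the level on both arrays, at 4.34 after anti-CD84 and 4.04 after IgG1. Osteoclast markers Dcstamp, Ocstamp, Calcr and Oscar were likewise below it, and Ctsk and Acp5 had differences of -0.11 and -0.23.

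A list of stromal genes that act on osteoclast formation or respond to its hormones and cytokines was read beside this axis. Of 12 measured genes 9 were detected, 1 was at least 1.5-fold higher and 0 were lower, beside 10.7% and 6.40% of all detected genes. The median difference was 0.31, beside 0.09 for all detected genes. All 9 were positive as deposited and when centred, and 8 of 9 with the loess correction or quantile normalization. Of all 13290 detected genes 7847 were positive as deposited. The list was chosen with earlier results of these data known, so its signs describe these 9 genes only. Sema3a, a semaphorin that restrains osteoclasts, was at 9.44 after anti-CD84 and 8.85 after IgG1, 1.51-fold higher, and lay within 1.5-fold under the 3 other scalings.

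Of 11 pairs of members that lie next to each other or are separated by at most 2 coding genes, 7 had differences of opposite sign and 4 of the same sign. These pairs include undetected members, whose signs carry no meaning, and in only 2 of the 11 did each gene exceed the detection level on both arrays. One was Tnfrsf22 and Tnfrsf23, adjacent on mouse chromosome 7, at -0.15 and 1.26. The other was Tnfrsf1a and Ltbr, which are separated by 1 coding gene on mouse chromosome 6, at 0.63 and -0.51. Tnfrsf1b and Tnfrsf8, adjacent on chromosome 4, had 0.31 and -1.06. Tnf and Lta had 0.32 and -1.79. For Tnfsf9, adjacent to Cd70, the difference was -0.02, while Tnfsf14, on the other side of Cd70, had 0.66.

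Family members with other symbols, outside the rule that chose the 36, had 1 higher gene. Of 9 measured 5 were detected, with a median of -0.23, beside 0.09 for all detected genes. Of these 5, 1 was at least 1.5-fold higher and 0 were lower, beside 10.7% and 6.40% of all detected genes. Eda2r, a receptor for an ectodysplasin isoform, was at 6.16 after anti-CD84 and 5.31 after IgG1, 1.81-fold higher. The death receptor Fas was at 5.55 after anti-CD84 and 5.66 after IgG1, and Fasl was below the level on both arrays.

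Genes for proteins that carry the receptors' signals had differences of both signs. Of 20 detected adaptors and ubiquitin ligases, 3 were at least 1.5-fold higher and 3 lower, against 10.7% and 6.40% of all detected genes. Their median was 0.03, against 0.09. Sharpin, a subunit of the linear ubiquitin ligase complex, was at 9.17 after anti-CD84 and 8.37 after IgG1, 1.74-fold higher. Traf7 (10.50 after anti-CD84, 9.85 after IgG1) was 1.57-fold higher. Traf6, which also serves interleukin-1 and Toll-like receptors, was at 7.20 after anti-CD84 and 6.58 after IgG1, 1.54-fold higher. Both Traf genes came within 1.5-fold under the 3 other scalings, which left 1 higher and 3 lower. Birc2, the ubiquitin ligase cIAP1 of the TNF receptor complex, was at 6.60 after anti-CD84 and 7.42 after IgG1, 1.76-fold lower. Otulin, which removes linear ubiquitin chains, was 1.65-fold lower, at 6.46 after anti-CD84 and 7.18 after IgG1. Traf1, a TRAF protein without a ubiquitin ligase domain, was at 4.96 after anti-CD84 and 5.57 after IgG1, 1.53-fold lower. The adaptors nearest to the death domain differed less: Tradd was 1.15-fold and Fadd 1.10-fold lower.

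Among the death effectors 2 of 7 detected genes were at least 1.5-fold higher and 0 lower, where all detected genes had 10.7% and 6.40%. Their median was 0.23, beside 0.09 for all detected genes. Casp8, the caspase that FADD recruits, was at 9.81 after anti-CD84 and 8.99 after IgG1, 1.77-fold higher. Dffa, the inhibitor and chaperone of the apoptotic DNase, was at 6.42 after anti-CD84 and 5.40 after IgG1, 2.03-fold higher. Cflar, the caspase-8 inhibitor c-FLIP, was 1.22-fold higher. Kinases and NF-kB factors had 1 higher and 1 lower of 17 detected genes, no more than the 10.7% and 6.40% of all detected genes, with a median of 0.05 that turned negative under each of the 3 other scalings. Nfkbie, an inhibitor of NF-kB, was at 5.47 after anti-CD84 and 4.76 after IgG1, at least 1.54-fold higher. Tab1, an activator of the kinase TAK1, was at 7.42 after anti-CD84 and 8.06 after IgG1, 1.56-fold lower. Of 9 genes for the shedding of ligands and receptors 0 were 1.5-fold apart, beside 10.7% higher and 6.40% lower of all detected genes. Their median was -0.11, beside 0.09 for all detected genes. The largest differences there were 0.55 for the intramembrane protease Sppl2b and -0.44 for the presenilin Psen2, and Adam17, the protease that sheds TNF, was at -0.15.

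**Figure D4:**
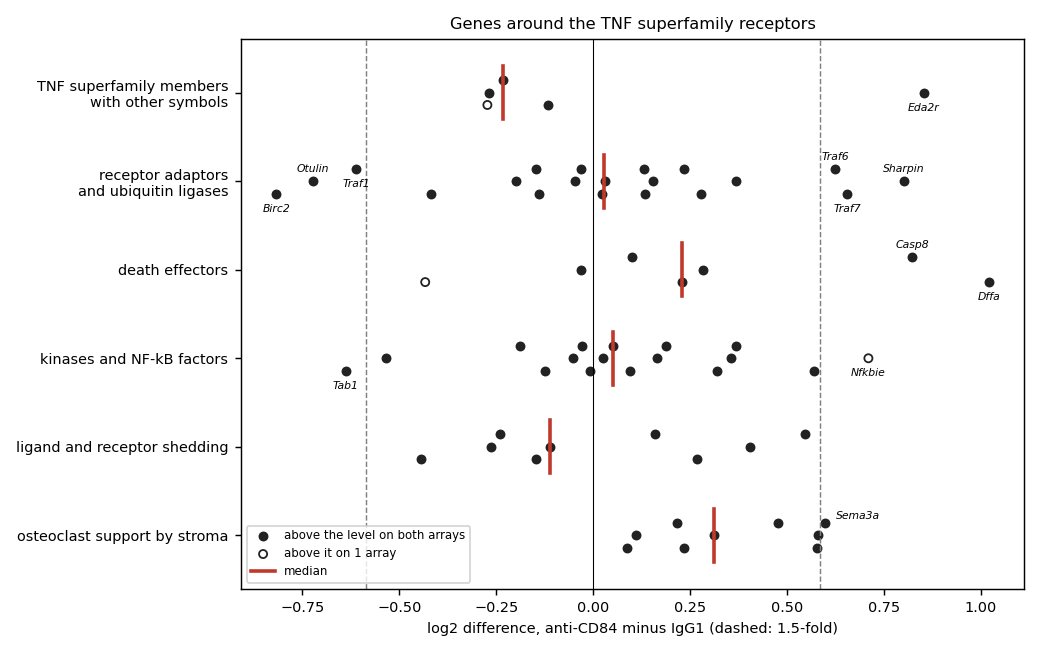
Log2 difference, anti-CD84 minus IgG1, of the detected genes in 6 lists of genes around the TNF superfamily receptors, with filled points for genes above the detection level on both arrays, open points for those above it on 1 array, a bar at each list's median and dashed lines at 1.5-fold. Receptor adaptors extend past 1.5-fold on both sides, from Birc2 at -0.82 to Sharpin at 0.80. The osteoclast-related list lies to the right of 0, as do 7847 of all 13290 detected genes.

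Markers of other cells also differed between the arrays near the detection level. Endothelial Cdh5 was at 4.61 after anti-CD84 and 5.56 after IgG1, and Pecam1 at 4.32 and 4.99 in the same order, so both crossed the level in the direction of Lta, Tnfrsf8, Tnfrsf13b and Tnfsf13b. Csf1r of the macrophage list crossed it the other way, at 4.86 after anti-CD84 and 4.14 after IgG1. Elane of that list crossed the level as Cdh5 did, at 4.57 after anti-CD84 and 5.02 after IgG1. So did Cd3d of the T and NK cell list, at 4.76 and 5.10 in the same order. The remaining detected endothelial marker, Emcn, was at 5.19 on both arrays. The endothelial list, with 3 of 6 genes detected, summed to 133 after anti-CD84 and 181 after IgG1 on the linear scale. The T and NK cell list summed to 164 and 180 in that order, and the macrophage and granulocyte list, with 3 of 10 detected, to 217 and 255. Such sums weight each probe set by its own brightness. The labels name a single stromal line and no other cells, and many genes of these lists were below the detection level on both arrays. Whether such cells were present, and their part in the lower members, was not tested. Fewer cells of a type cannot be told apart from less RNA per cell.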

How the data were processed

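RNA of 2 cultures was measured on 1 array per treatment. Log2 values per probe set were deposited, for which RMA and Partek are named per the submitters' processing notes, without version or setting; RMA in general corrects background, normalizes arrays to each other and summarizes probes. The log2 scale was inferred from the values (1.82 to 13.8). RMA values of dim probe sets are compressed towards the background, which can understate the fold of a dim gene. The number of arrays limits the precision.

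Of 41345 probe sets, 23521 with 1 symbol in GEO's platform annotation were used, 1814 with several and 16010 without a name were not. A gene was represented by its brightest probe set. All 36 members matched RefSeq (GRCm38.p6) by gene ID, with the same symbol. The array's build is not given in the sources used here, so no probe positions are given.

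Members and gene lists were chosen with earlier results of these data known. All detected members are named, with pathway list genes at least 1.5-fold apart or, failing that, the 2 largest differences, and some further list genes chosen for their role after values were seen. The counting step was tested on simulated data whose unchanged genes spread less than the genes measured here. That test checks the code and says nothing about false calls in these data. Alternatives were centring, loess (limma, span 0.4), quantile normalization, no level filter, a stricter level of 6.88 (the 75th percentile of all values), both arrays above the level, the mean of a gene's probe sets, and flooring. The tools were limma 3.58.1 in R 4.3.3, and matplotlib 3.10.9, pandas 2.3.3 and numpy 2.4.6 in Python 3.11.15.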

Additional observations from a re-analysis of the deposited data

Results flagged for a closer look

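A pair of probe sets is annotated to several symbols that include family members, so both were assigned to no gene and entered no count. The one annotated to 3 symbols, among them Tnfsf12 and Tnfsf13, was at 6.68 after anti-CD84 and 5.69 after IgG1, a difference of 0.99 on the log2 scale. It drew attention because it lies outside the measurements used and was higher than in the control culture. The one annotated to 2 symbols was at 5.44 after anti-CD84 and 5.28 after IgG1, a difference of 0.16. Which of the annotated transcripts gave these values was not tested.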

How the results depend on the processing

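With the difference centred, loess-corrected or quantile-normalized, the number of members at least 1.5-fold higher was 2 in place of 4, and 5 were lower in place of 4. The 2 were Tnfrsf23 and Tnfrsf25 when centred, and Tnfrsf23 and Tnfsf14 with the other 2 scalings, and Ltbr was the added lower gene in each. Higher members made up 28.6% of those past 1.5-fold in these 3 settings and 50.0% as deposited. All detected genes moved too, from 10.7% higher and 6.40% lower as deposited to 7.71% and 8.49% when centred. They had 8.16% and 7.67% with the loess correction, and 8.21% and 7.78% with quantile normalization. Members at least 1.5-fold lower numbered 0 with the stricter level, 0 above the detection level on both arrays and 1, Lta, with values floored at it. The shares of all genes in these settings were 2.93%, 3.88% and 4.14%. The median of the detected members, 0.04, turned negative when centred (-0.05), loess-corrected (-0.06), quantile-normalized (-0.06) or floored (-0.0042). All 8 alternatives moved it by less than 0.44, the spread of single genes, which is a wide measure for a median of 26. Of 180 single values under 5 alternatives 6 moved by more than that spread, each by flooring, and 0 of the members past 1.5-fold changed sign. Centring shifts every difference by the same 0.09 and the mean of probe sets shifts none, so neither could pass that spread. Flooring cannot reverse a sign. Detected Tnfrsf10b alone had both signs. The mean of a gene's probe sets changed no member, since each has 1. No paired analysis was possible because each group has 1 array, and for the same reason no replicate could be left out. The number of arrays, 1 per group, limits the precision of each value, and 9 of 26 detected members were above the detection level on 1 array alone.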
